A study of Mus musculus with 11 samples.

Results

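The nuclear genes of oxidative phosphorylation were followed by complex in long-term haematopoietic stem cells (LT-HSCs) that carry or lack endomucin (EMCN), a sialomucin of endothelium and of some blood stem cells, and in granulocyte-monocyte progenitors (GMPs). Members were chosen by gene symbol, a choice made with earlier results of these data known: symbols of the families Nduf, Sdh, Uqcr, Cyc1, Cycs, Cox4 to Cox8 and Atp5, without pseudogene symbols and without the Ndufaf assembly factors. The symbol pattern found 92 of the 54347 genes. Complex I had 37 of them, complex II 4, complex III 9, cytochrome c 1, complex IV 19 and complex V 17, and 5 that match by symbol but are not subunits (the complex II assembly factors Sdhaf1 to Sdhaf4 and the supercomplex factor Cox7a2l) were kept apart. Ndufa4 and Ndufa4l2 carry complex I symbols and were placed with complex IV, where the Ndufa4 protein is now known to sit.

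Cells came from the bone marrow of 4 female, wild-type C57BL/6NTac mice, whose ages the labels do not give. EMCN+ LT-HSCs (4 libraries, mice 1 to 4), EMCN- LT-HSCs (3 libraries, mice 1, 2 and 4) and GMPs (4 libraries, mice 1 to 4) were sorted by flow cytometry after removal of lineage-positive cells. The LT-HSC gate was CD150+ CD48- within lineage-negative Sca-1+ c-Kit+ (LSK) cells, and each LT-HSC library was made from 3000 to 5000 cells. The submitters withdrew the EMCN- library of mouse 3 for poor quality, so 3 mice give a complete LT-HSC pair. Replicates are separate animals within each sorted population. Across populations the libraries come from the same 4 mice. Values per library are given below in the order of the mouse number.

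Oxidative phosphorylation takes place at the inner mitochondrial membrane. Complexes I and II pass electrons from NADH and succinate to ubiquinone, complex III passes them to cytochrome c, complex IV hands them to oxygen, and complex V, the ATP synthase, uses the resulting proton gradient to make ATP. Most subunits are encoded in the nucleus and imported, a few are encoded in mitochondrial DNA, and some complex IV subunits exist as tissue isoforms. LT-HSCs are mostly quiescent and are known for a low reliance on respiration, whereas GMPs divide rapidly.

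Library totals ran from 3629234 to 11141483 estimated counts. Levels are given in CPM, counts scaled by the library size times a TMM normalisation factor. The factors ran from 1.10 to 1.31 in LT-HSC libraries and from 0.668 to 0.757 in GMP libraries. A ratio of CPM between them is therefore not a ratio of shares of the counts. A gene with 0 counts in a library could still hold up to 3, as far as counting error alone goes. This limit came to between 0.209 and 0.705 CPM by library. The members together took 0.442 ± 0.0519% of the counts in EMCN+ LT-HSCs (SD, n = 4), 0.524 ± 0.0584% in EMCN- LT-HSCs (n = 3) and 0.877 ± 0.0187% in GMPs (n = 4). Mitochondrial ribosomal RNA took 18.04 ± 4.06%, 18.2 ± 0.762% and 27.6 ± 1.28% in the same groups. The sorted labels were compared with marker genes: all 10 LT-HSC markers were higher and all 10 GMP markers were lower in LT-HSCs than in GMPs. Of all genes 32.5% were called higher and 29.9% lower. Slamf1, Ly6a and Kit of the LT-HSC list encode CD150, Sca-1 and c-Kit of the sort gate, so they are no independent check. The GMP markers summed to 36.4 to 44.9 CPM in EMCN+ LT-HSCs, 73.3 to 78.5 CPM in EMCN- LT-HSCs and 18310 to 21084 CPM in GMPs. In sorted bulk samples fewer cells of a type and less RNA per cell cannot be told apart.

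Of the 92 members, 85 passed the filter on low counts and 7 did not. The 7 were Ndufa11b, Cox6a2, Cox7a1, Cox7b2, Cox8b, Cox8c and Ndufa4l2, and Cox7b2, Cox8b and Cox8c had 0 counts in all 11 libraries. Per kilobase of transcript the median tested member stood at 31.8 CPM in EMCN+ LT-HSCs, 44.2 CPM in EMCN- LT-HSCs and 108 CPM in GMPs. Atp5h, a stator subunit of the ATP synthase, had the highest level per kilobase in LT-HSCs, with 199 CPM in the EMCN+ and 277 CPM in the EMCN- fraction. In GMPs it was Atp5mpl, a small membrane protein of the same enzyme, with 1609 CPM per kilobase.

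Promoters of respiratory genes are known in mammals for sites of NRF1, of the ETS-family factor GABP (also called NRF2) and of YY1, and stretches of 5 members are shown to let the letters be read beside the values given further on. Each is the 150 bases before the transcript start on the gene's own strand, read 5′ to 3′ from RefSeq on build GRCm38.p6, and capitals mark a match to CGCATGCG for NRF1, CCGGAAG for ETS factors or AAGATGGCG for YY1. Cycs encodes cytochrome c and Uqcr11 a small subunit of complex III. Atp5k and Atp5j encode subunits e and F6 of the ATP synthase, and Cox7b a small subunit of complex IV that held no match in these bases. The 5 are picked examples and do not stand for the members. All but Cox7b hold a match, whereas 31 of the 74 members with a RefSeq window held one in the full window. Cox7c, not printed, had no match in the same 150 bases. Atp5j has 2 RefSeq starts, and the one with more matches was picked for printing. The window of its other start held no match to any of the motifs.
Cycs (chr6:50566570-50566719, minus strand): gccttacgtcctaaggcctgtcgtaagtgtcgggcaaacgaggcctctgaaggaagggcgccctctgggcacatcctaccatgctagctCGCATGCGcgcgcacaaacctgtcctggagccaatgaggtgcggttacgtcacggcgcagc
Uqcr11 (chr10:80406822-80406971, minus strand): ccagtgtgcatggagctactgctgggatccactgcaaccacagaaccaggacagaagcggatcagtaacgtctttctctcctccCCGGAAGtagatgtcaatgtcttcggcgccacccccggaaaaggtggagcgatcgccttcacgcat
Atp5j (chr16:84834977-84835126, minus strand): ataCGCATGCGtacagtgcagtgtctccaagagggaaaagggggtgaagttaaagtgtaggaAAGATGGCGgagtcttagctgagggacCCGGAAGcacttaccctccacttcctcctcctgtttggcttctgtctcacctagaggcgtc
Atp5k (chr5:108434400-108434549, minus strand): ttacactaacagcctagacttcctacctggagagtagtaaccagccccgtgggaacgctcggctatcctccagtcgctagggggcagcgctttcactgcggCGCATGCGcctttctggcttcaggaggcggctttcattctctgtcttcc
Cox7b (chrX:106015550-106015699, plus strand): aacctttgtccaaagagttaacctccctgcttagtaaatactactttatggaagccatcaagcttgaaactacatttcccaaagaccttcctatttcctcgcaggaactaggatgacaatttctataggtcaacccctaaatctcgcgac

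Of the 92 members 74 matched a RefSeq window of 250 bases before to 50 bases after a start, in 79 windows. Each motif was searched on both strands. The NRF1 letters lay in 10 windows (12.7%), against 1.87% of all 32851 windows. The ETS letters lay in 20 (25.3%), against 8.86% of all windows, and the YY1 letters in 7 (8.86%), against 1.40%. At least one of them lay in 31 windows (39.2%), against 11.5% of all windows. A match describes the letters of the window and is not a bound site.

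In EMCN+ LT-HSCs 22 of the 85 tested members were lower than in EMCN- LT-HSCs (1.19% of all genes), and small membrane subunits of complexes IV and V, such as Cox7c, Cox6c and Atp5mpl, had the smallest p-values. Summed over all members the level was 3833, 3415, 3626 and 3215 CPM in the EMCN+ libraries, against 4821, 4399 and 4266 CPM in the EMCN- libraries. Every EMCN+ library lay below every EMCN- library, and the ratio of the means was 0.784. The sums of complexes I, III, IV and V likewise did not overlap between the fractions, with ratios of 0.804, 0.733, 0.681 and 0.786. Complex II summed to 246, 278, 248 and 222 CPM in EMCN+ LT-HSCs and 307, 260 and 270 CPM in EMCN- LT-HSCs, so its libraries overlapped.

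**Figure D1:**
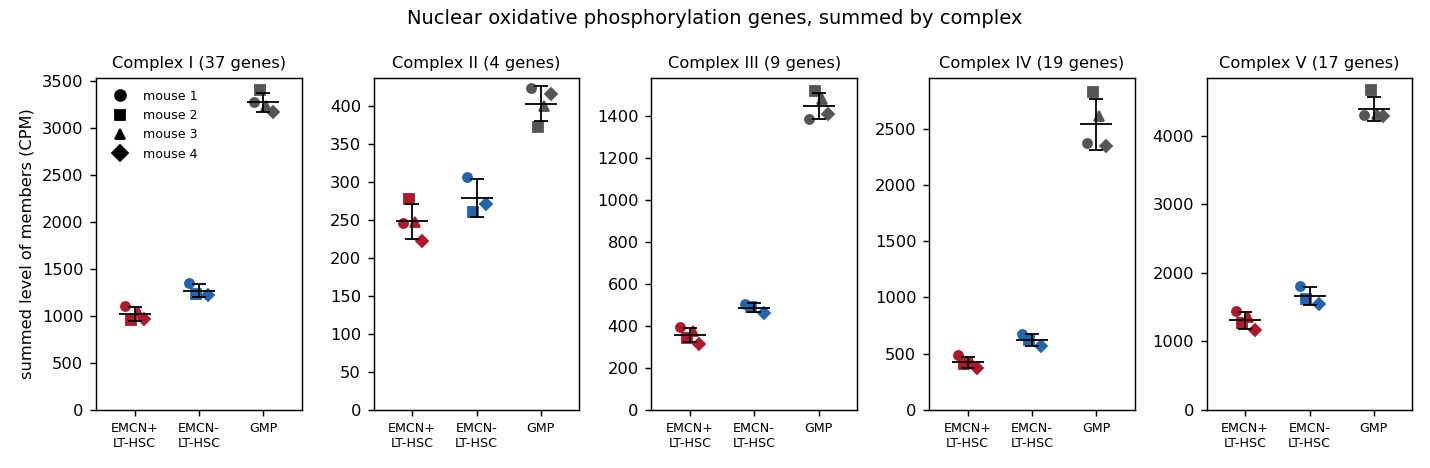
Summed level in CPM (y axis, from 0) of the nuclear members of complexes I to V in each library of EMCN+ LT-HSCs (n = 4), EMCN- LT-HSCs (n = 3) and GMPs (n = 4), with marker shape for the mouse and bars for mean and SD. All LT-HSC libraries sit below all GMP libraries in each complex. On this TMM-scaled level the EMCN+ libraries sit below the EMCN- libraries in complexes I, III, IV and V but not in complex II.

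Gene positions below are on GRCm38. By edgeR's quasi-likelihood test with Benjamini-Hochberg adjustment over 14915 genes at a threshold of 0.05, these 22 members were lower and 0 were higher in EMCN+ LT-HSCs. Among all genes tested 1.19% were called lower and 0.771% higher. All alternatives gave 0 higher calls as well, DESeq2 and limma-voom included, and 54 members, all with a negative difference, had an unadjusted p under 0.05. The median log2 difference was -0.40 over the members and 0.00 over all genes, and 82 members had a negative one. The groups did not overlap, with EMCN+ lower, for 35 members, against a background of 6.99% of genes.

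Within the 3 mice that gave both fractions the direction recurred. The median member (log2 ratio of CPM + 0.5) differed by -0.37 on the log2 scale in mouse 1, -0.47 in mouse 2 and -0.40 in mouse 4, with 73, 77 and 77 of 85 members lower in the EMCN+ library. In all 3 pairs 62 members were lower, against 20.1% of all genes. These were 23 members of complex I, 3 of complex II, 9 of complex III, 9 of complex IV, 16 of complex V and 2 of the other proteins. Ndufs1 was the single member lower in no pair.

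The count of calls rested on single libraries and on the scaling. Without the EMCN- library of mouse 1, the one with the highest summed level of its group (4821 CPM), 1 member, Ndufb6, was called (0.188% of all genes). Without the EMCN+ library of mouse 2 or of mouse 4 the counts were 7 (0.399%) and 10 (0.674%), and without the EMCN- library of mouse 2 or of mouse 4 they were 13 (0.808%) and 14 (0.771%). Without the GMP library of mouse 3, which enters this contrast through the shared dispersion, 13 members were called (0.913%). Scaling to total counts gave 4 (0.335%), with 76.3% of the calls over all genes in the higher direction, against 39.2% as reported. The median member stayed below 0 in each of these fits, at -0.29 with total counts and between -0.45 and -0.37 with single libraries left out. Among markers of other cell types, 4 of 8 tested megakaryocyte or platelet markers were lower and 1 was higher in EMCN+ LT-HSCs, and their summed level was 150 to 225 CPM in EMCN+ and 147 to 209 CPM in EMCN- LT-HSCs. Of the GMP markers 1 of 10 was lower, and of 8 erythroid markers 1 was lower, with sums of 385 to 483 CPM in EMCN+ and 441 to 518 CPM in EMCN- LT-HSCs. Endothelial markers had 1 of 8 tested higher, and lymphocyte markers 1 of 2 tested lower. The LT-HSC markers differed between the fractions too, with 3 of 10 higher and 0 lower in EMCN+ LT-HSCs. They summed to 1514 to 1830 CPM in EMCN+ and 1253 to 1414 CPM in EMCN- LT-HSCs. The part of these markers in the members' difference was not tested.

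**Figure D2:**
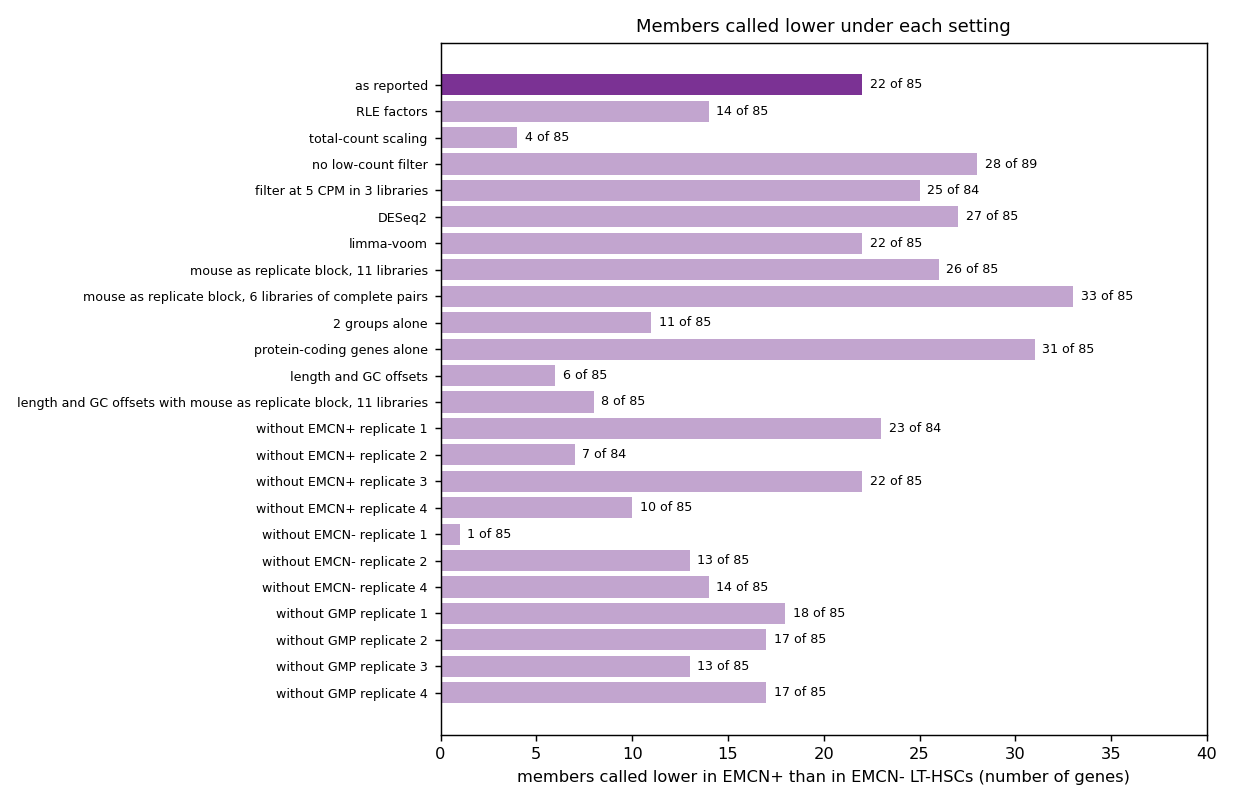
Number of the tested members called lower in EMCN+ than in EMCN- LT-HSCs (x axis, from 0) under each setting or with a library left out (y axis). The count is 22 as reported, 1 without the EMCN- library of mouse 1 and 33 when mouse enters as a block and only complete pairs are fitted, where 528 of all 13435 genes are called lower, against 178 of 14915 as reported.

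Complex I, the NADH dehydrogenase, had 6 of 36 tested members lower and a median difference of -0.36. Ndufb6 (chr4:40270591-40279421, minus strand), an accessory subunit of the membrane arm, had 7.35, 4.60, 3.79 and 7.04 CPM in EMCN+ LT-HSCs, against 9.94, 14.0 and 11.5 CPM in EMCN- LT-HSCs. The groups did not overlap, and the log2 difference of -1.08 ± 0.22 (SE), or 2.12-fold lower, had the largest size among all tested members (edgeR adjusted p = 0.0113). Ndufa3 (chr7:3617373-3620327, plus strand), another accessory subunit, had 13.5, 12.2, 13.3 and 14.3 CPM in EMCN+ LT-HSCs and 22.8, 21.3 and 19.3 CPM in EMCN- LT-HSCs. Its difference was -0.68 ± 0.14 (edgeR adjusted p = 0.0111) and its groups did not overlap. Ndufb8, a membrane arm subunit often used as a marker of assembled complex I, had 31.5, 22.5, 35.6 and 24.04 CPM in EMCN+ LT-HSCs and 48.3, 37.8 and 45.1 CPM in EMCN- LT-HSCs. It differed by -0.62 ± 0.14 (edgeR adjusted p = 0.0278), again with no overlap. Ndufa1, Ndufv2 and Ndufs4 were also called, at -0.77, -0.48 and -0.51. Ndufs4 passed with an adjusted p just under the threshold, and Ndufv2 was close to it (edgeR adjusted p = 0.0441).

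No member of complex II, the succinate dehydrogenase shared with the citric acid cycle, was called, and the median of its 4 genes was -0.25. Sdhb, the iron-sulfur subunit, had 28.1, 26.6, 30.2 and 26.0 CPM in EMCN+ LT-HSCs and 43.9, 35.2 and 29.6 CPM in EMCN- LT-HSCs. The 2 groups overlapped by 1 library, and the difference of -0.39 ± 0.14 did not pass the test (edgeR adjusted p = 0.164). Sdhd, a membrane anchor, stood at -0.38 ± 0.16 (edgeR adjusted p = 0.282).

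Complex III, the cytochrome bc1 complex, had 2 of 9 members lower and a median of -0.45. Uqcr11, whose promoter letters hold an ETS match and, from -5 and so past the end of the printed stretch, an NRF1 match, had 20.1, 17.6, 16.6 and 12.3 CPM in EMCN+ LT-HSCs and 28.8, 25.2 and 27.3 CPM in EMCN- LT-HSCs. The difference was -0.68 ± 0.14 (edgeR adjusted p = 0.0118) with no overlap. Uqcrb (chr13:66900617-66905378, minus strand), known as a ubiquinone-binding protein, had 85.9, 62.8, 68.5 and 58.2 CPM in EMCN+ LT-HSCs and 115, 104 and 95.4 CPM in EMCN- LT-HSCs. Its difference was -0.60 ± 0.12 (edgeR adjusted p = 0.0126), and all EMCN+ libraries were lower. Cycs, the mobile electron carrier, had 19.0, 23.2, 27.8 and 16.6 CPM in EMCN+ LT-HSCs and 29.2, 22.4 and 31.5 CPM in EMCN- LT-HSCs. Its groups overlapped and its difference of -0.34 ± 0.16 did not pass (edgeR adjusted p = 0.357).

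Complex IV, the cytochrome c oxidase, had 6 of 13 tested members lower and a median of -0.52. Cox7c (chr13:86044816-86046904, minus strand), a small subunit with a single membrane helix, had 16.8, 15.97, 13.9 and 14.3 CPM in EMCN+ LT-HSCs, against 34.9, 20.02 and 34.5 CPM in EMCN- LT-HSCs. No EMCN+ library reached the EMCN- range, and the difference was -0.95 ± 0.17 (edgeR adjusted p = 0.00563), the smallest p among the members. Near-identical copies hold 12.3% of the joint counts of Cox7c and these copies. Cox6c had 130, 101, 95.3 and 88.7 CPM in EMCN+ LT-HSCs and 186, 167 and 148 CPM in EMCN- LT-HSCs, a difference of -0.68 ± 0.13 (edgeR adjusted p = 0.00768). Cox7b had 55.6, 44.1, 54.2 and 42.0 CPM in EMCN+ LT-HSCs and 87.2, 80.7 and 69.3 CPM in EMCN- LT-HSCs, a difference of -0.69 ± 0.13 (edgeR adjusted p = 0.00849). Both are small membrane subunits, and neither had an EMCN+ library within the EMCN- range. Cox5b, Ndufa4 and Cox4i1 were also called, at -0.49, -0.70 and -0.39, and Cox4i1 passed with an adjusted p just under the threshold. Cox5b and Ndufa4 were close to it (edgeR adjusted p = 0.0477 and 0.0439).

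Complex V had 8 of 17 members lower and a median of -0.48. Atp5mpl (chr12:111961375-111966977, minus strand) had 96.7, 72.5, 73.2 and 75.4 CPM in EMCN+ LT-HSCs and 146, 134 and 115 CPM in EMCN- LT-HSCs. The groups did not overlap and the difference was -0.73 ± 0.13 (edgeR adjusted p = 0.00665). Atp5o, the oligomycin sensitivity conferring protein that joins stator and catalytic head, had 50.1, 43.5, 42.1 and 39.3 CPM in EMCN+ LT-HSCs and 79.1, 62.0 and 60.6 CPM in EMCN- LT-HSCs. It differed by -0.62 ± 0.12 (edgeR adjusted p = 0.00849) with no overlap. Atp5l, subunit g of the membrane part, had 40.7, 32.9, 36.9 and 34.6 CPM in EMCN+ LT-HSCs and 56.3, 49.1 and 53.6 CPM in EMCN- LT-HSCs. Its difference was -0.55 ± 0.11 (edgeR adjusted p = 0.0118), also with no overlap, and near-identical copies hold 17.4% of the joint counts. Atp5g1, Atp5h, Atp5j2, Atp5md and Atp5pb were called as well, between -0.65 and -0.47. Atp5h, Atp5j2 and Atp5pb were close to the threshold (edgeR adjusted p = 0.0427, 0.0469 and 0.0456).

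In LT-HSCs nearly all members were lower than in GMPs. Summed over all members, LT-HSC libraries of both fractions ran from 3215 to 4821 CPM and GMP libraries from 11952 to 13143 CPM, a ratio of means of 0.318. The edgeR quasi-likelihood test called 81 of 85 lower and 0 higher, with 29.9% of all genes called lower and 32.5% higher. For the 0 higher calls DESeq2 and limma-voom also gave 0, total-count scaling gave 6 and length and GC offsets gave 1. The median log2 difference was -1.66 for the members and 0.03 for all genes. The groups did not overlap, with LT-HSCs lower, for 77 members, against 23.0% of genes. The members not called were Ndufs1, Sdha, Cox4i2 and Cox7a2l.

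Against GMPs, EMCN+ LT-HSCs had 81 of 85 members lower (29.4% of all genes) with a median of -1.83. EMCN- LT-HSCs had 76 lower (24.4% of all genes) with a median of -1.49. Both comparisons use the same 4 GMP libraries. Under total-count scaling the median of all genes moved to 0.81, and 65 members were called lower (12.8% of all genes) and 6 higher (60.8%) in LT-HSCs, among them Ndufs1, Sdha and Cox7a2l. The median member then stood at -0.88, which is 1.69 below the median of all genes, as far as with the reported scaling. With that scaling 82.6% of the calls over all genes were higher, against 52.1% with the reported one.

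**Figure D3:**
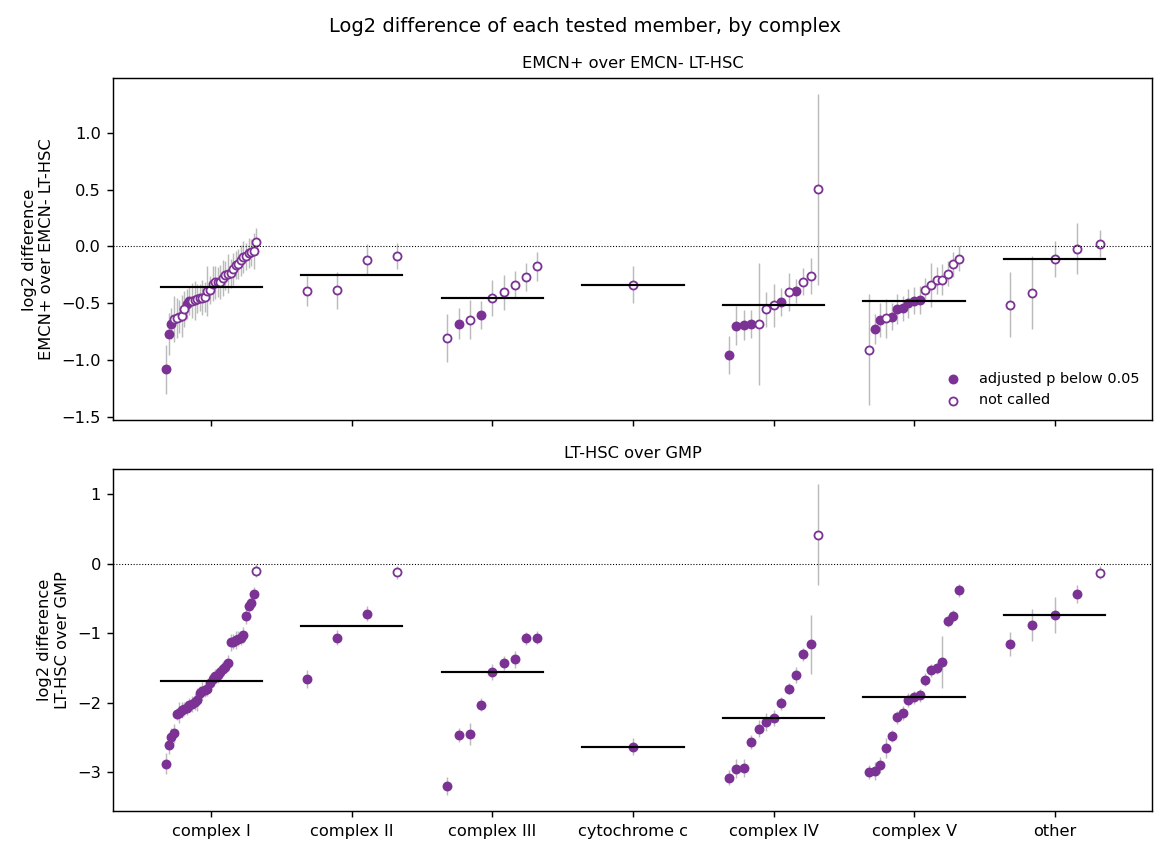
Log2 difference (y axis) of each tested member in EMCN+ over EMCN- LT-HSCs (top) and in LT-HSCs over GMPs (bottom), by complex, with SE bars, filled points for an adjusted p below 0.05 and a bar at the median of each complex. Complex IV has the lowest median of the 5 complexes in both panels, at -0.52 and -2.21, and complex II the highest, at -0.25 and -0.89. With length and GC offsets complex III has the lowest median in the top comparison (-0.35, against -0.31 for complex IV) and complex V in the bottom one (-1.25, against -1.23 for complex IV).

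Complex I had 35 of 36 tested members lower than in GMPs, with a median of -1.69. Ndufb6 again led, with 3.79 to 14.0 CPM over the LT-HSC libraries and 56.3, 66.3, 52.1 and 51.5 CPM in GMPs. The groups stood far apart and the difference was -2.87 ± 0.16, or 7.33-fold lower (edgeR adjusted p = 1.42e-12). Ndufa1, an accessory subunit needed for assembly, had 5.44 to 10.8 CPM in LT-HSCs and 49.5, 50.8, 45.3 and 36.02 CPM in GMPs, a difference of -2.60 ± 0.14 (edgeR adjusted p = 7.85e-13). Ndufs1 (chr1:63143596-63176833, minus strand), the large iron-sulfur subunit that holds part of the electron path, had 48.2, 47.0, 45.0 and 44.8 CPM in EMCN+ LT-HSCs, 45.6, 45.5 and 43.7 CPM in EMCN- LT-HSCs and 52.5, 50.8, 41.0 and 51.1 CPM in GMPs. All 3 populations overlapped, and the difference from GMPs was -0.10 ± 0.10 (edgeR adjusted p = 0.389).

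Complex II was split among its 4 genes. Sdhd, the anchor, had 25.9 to 50.8 CPM in LT-HSCs and 109, 92.7, 110 and 128 CPM in GMPs, and fell by 1.65 on the log2 scale (SE 0.13, edgeR adjusted p = 7.35e-10). Sdhb had 26.0 to 43.9 CPM in LT-HSCs and 64.5, 60.6, 71.9 and 63.6 CPM in GMPs, and fell by 1.06 (SE 0.11, edgeR adjusted p = 2.39e-08). Under total-count scaling Sdhb stood at -0.28 and was not called (edgeR adjusted p = 0.0522). Neither gene overlapped between LT-HSCs and GMPs. Sdha (chr13:74322254-74350280, minus strand), the flavoprotein that oxidises succinate, had 165, 190, 151 and 135 CPM in EMCN+ LT-HSCs, 186, 162 and 164 CPM in EMCN- LT-HSCs and 194, 174, 168 and 178 CPM in GMPs. Its libraries overlapped and its difference of -0.12 ± 0.09 did not pass (edgeR adjusted p = 0.294).

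All 9 members of complex III were lower than in GMPs, with a median of -1.55. Uqcrq (chr11:53427922-53430831, minus strand), a small membrane subunit, had 35.0, 22.0, 25.3 and 18.6 CPM in EMCN+ LT-HSCs, 48.3, 35.7 and 34.8 CPM in EMCN- LT-HSCs and 268, 297, 301 and 264 CPM in GMPs. No LT-HSC library came near the GMP range, and the difference of -3.20 ± 0.13, or 9.16-fold lower, was the largest of all tested members (edgeR adjusted p = 1.94e-12). Uqcr11 had 12.3 to 28.8 CPM in LT-HSCs and 116, 117, 112 and 110 CPM in GMPs, a difference of -2.46 ± 0.10 (edgeR adjusted p = 3.34e-14). Cycs had 162, 160, 134 and 141 CPM in GMPs, above all LT-HSC libraries, and its difference was -2.63 ± 0.12 (edgeR adjusted p = 1.65e-13). Near-identical copies hold 53.8% of the joint counts of Cycs and these copies, so its level is uncertain.

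Complex IV had 12 of 13 tested members lower and a median of -2.21. Cox7b (chrX:106015700-106022450, plus strand) had 42.0 to 87.2 CPM in LT-HSCs and 498, 605, 484 and 446 CPM in GMPs, and differed by -3.08 ± 0.10, or 8.43-fold (edgeR adjusted p = 1.21e-15). Cox7a2, the ubiquitous form of its subunit, had 8.34 to 17.4 CPM in LT-HSCs and 77.3, 112, 106 and 85.5 CPM in GMPs, and differed by -2.94 ± 0.14 (edgeR adjusted p = 2.24e-13). Both genes had every LT-HSC library below every GMP library. Complex IV took 11.96 ± 0.512% of the members' summed level in EMCN+ LT-HSCs, 13.8 ± 0.426% in EMCN- LT-HSCs and 20.5 ± 0.993% in GMPs (SD, n = 4, 3 and 4). Complex II took 7.07 ± 0.744%, 6.205 ± 0.256% and 3.26 ± 0.311% in the same groups, so the 2 shares ran in opposite order.

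All 17 members of complex V were lower than in GMPs, with a median of -1.92. Atp5mpl had 72.5 to 146 CPM in LT-HSCs and 731, 961, 760 and 695 CPM in GMPs, a difference of -2.99 ± 0.11 (edgeR adjusted p = 2.46e-15). Atp5k, with an NRF1 match 49 to 42 bases before its start in the stretch above, had 12.9 to 27.4 CPM in LT-HSCs and 146, 195, 169 and 113 CPM in GMPs, a difference of -2.98 ± 0.13 (edgeR adjusted p = 1.54e-13). Neither gene overlapped between the groups. The catalytic subunits of the head differed less: Atp5b stood at -0.75 and Atp5a1 at -0.38, and Atp5a1 turned to 0.40 under total-count scaling and was then called higher in LT-HSCs (edgeR adjusted p = 0.00469).

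Among the proteins that are not subunits, Cox7a2l, a factor that joins complexes III and IV and of which C57BL/6 mice carry a shortened form, had 97.3, 99.3, 120 and 114 CPM in EMCN+ LT-HSCs, 95.9, 102 and 120 CPM in EMCN- LT-HSCs and 128, 115, 120 and 102 CPM in GMPs. Its libraries overlapped in all 3 populations, and its difference from GMPs was -0.13 ± 0.10 (edgeR adjusted p = 0.260). That value turned to 0.66 under total-count scaling and to 0.32 with length and GC offsets, and was then called higher. Sdhaf1 and Sdhaf4, which help to mature Sdhb and Sdha, were lower than in GMPs with log2 differences of -1.15 ± 0.18 and -0.87 ± 0.23 (edgeR adjusted p = 7.82e-06 and 0.00216). Under total-count scaling neither was called (edgeR adjusted p = 0.0864 and 0.780), and Sdhaf4 turned to 0.11 with length and GC offsets.

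Within complexes the members differed by structural class, as assigned from textbook knowledge after the values had been seen, so the classes are described without a test. In complex I the 7 core subunits had a median of -1.08 against GMPs, with 6 called lower, and the 29 accessory subunits one of -1.83, with 29 called lower. In EMCN+ against EMCN- LT-HSCs the same classes had medians of -0.09 and -0.45, with 1 and 5 called lower, and the core median turned to 0.03 under total-count scaling. In complex III the 4 large subunits, among them cytochrome c1 and the Rieske protein, stood at -1.22 against GMPs, and the 5 small ones at -2.45. With length and GC offsets these medians were -1.16 and -1.37. In complex V the F1 head had a median of -0.82, the stator -1.78 and the membrane part -2.34 against GMPs, and -0.24, -0.47 and -0.59 between the LT-HSC fractions. Against GMPs the 3 medians were -0.04, -0.99 and -1.56 under total-count scaling, and -0.75, -1.12 and -1.47 with length and GC offsets. The head was not uniform: as reported its 5 members ranged from -2.64 (Atp5e) to -0.38 (Atp5a1), and the 8 of the membrane part from -2.99 to -1.41. In each of these 3 complexes the class of small membrane or accessory subunits had the lower median in both comparisons as reported.

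These classes also differ in transcript length. The tested members had a median length of 748 bases, against 2511 bases for all tested genes with a length. Across the 85 members the log2 difference rose with length with a Spearman rho of 0.546 between the LT-HSC fractions and 0.557 against GMPs. Across all genes the rho was 0.275 and 0.345. These are descriptions across genes, which share libraries and are not independent replicates.

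**Figure D4:**
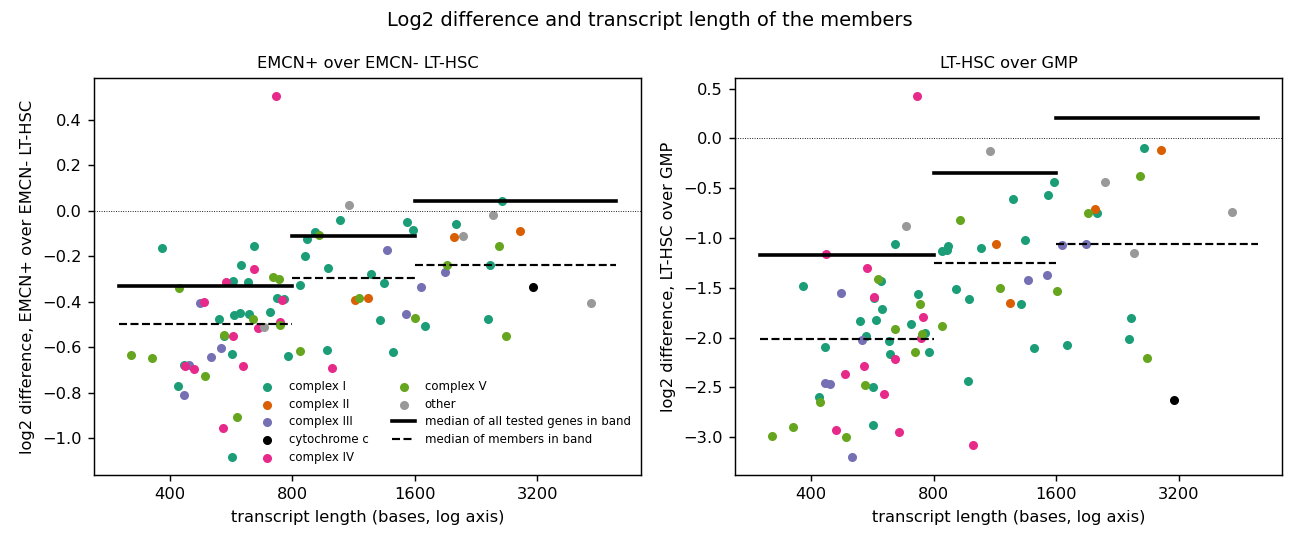
Log2 difference (y axis) of each tested member against transcript length in bases (x axis, log scale) for EMCN+ over EMCN- LT-HSCs (left) and LT-HSCs over GMPs (right), coloured by complex, with solid bars for the median of all tested genes and dashed bars for the median of the members in 3 length bands. In each band the members' median lies below that of all genes, by the least in the shortest band on the left (-0.50 against -0.33).

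In each of 3 bands of length the members' median lay below that of all genes. Under 800 bases 46 members had a median of -0.50 between the LT-HSC fractions, against -0.33 for all 1554 genes of the band. From 800 to 1600 bases the medians were -0.30 for 22 members and -0.11 for all genes, and from 1600 bases -0.24 for 17 members and 0.04 for all genes. Against GMPs the members' medians were -2.02, -1.25 and -1.06, and those of all genes -1.17, -0.35 and 0.20. With offsets for length and GC content the median member stood at -0.28 between the LT-HSC fractions with 6 called lower, and at -1.10 against GMPs with 79 called lower and 1, Cox7a2l, higher. The median thus moved towards 0 with the offsets in each comparison and stayed below it. The shares of all genes called with the offsets were 0.630% lower between the LT-HSC fractions, and 32.6% lower and 28.8% higher against GMPs.

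Tissue isoforms were compared per kilobase within their sets. Cox4i1, the ubiquitous form of the subunit through which ATP regulates the enzyme, took 98.2 ± 0.937% of its set in EMCN+ LT-HSCs, 99.0 ± 1.02% in EMCN- LT-HSCs and 99.7 ± 0.235% in GMPs. Cox4i2, known from lung and from low oxygen, had 2.38, 1.88, 1.11 and 0.586 CPM in EMCN+ LT-HSCs, 2.29, 0.161 and 0.705 CPM in EMCN- LT-HSCs and 0, 0.979, 1.37 and 1.68 CPM in GMPs. With the reported scaling it was the only tested member with a positive difference from GMPs, 0.42 ± 0.72 (edgeR adjusted p = 0.636), which turned to -0.016 without the GMP library of mouse 1, and its libraries overlapped. These values rest on 0 to 27 counts a library.

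The muscle forms were scarce or not detected. Cox6a2, of heart and skeletal muscle, had 0 counts in all 7 LT-HSC libraries and 7, 2, 0 and 3 counts in GMPs. Cox7a1, of muscle and brown fat, had 1, 0, 0 and 0 counts in EMCN+ LT-HSCs, 4, 1 and 7 in EMCN- LT-HSCs and 5, 2, 0 and 0 in GMPs. Cox7a2 took at least 98.2% of its set in each EMCN+ library, 94.996%, 98.4% and 83.2% in the EMCN- libraries and at least 98.5% in each GMP library, and the lowest share rests on 7 counts of Cox7a1. Cox6b2, of testis, was detected in all libraries at 0.195 to 7.29 CPM, and Cox6b1 took 89.0 ± 6.63%, 86.0 ± 6.93% and 93.7 ± 0.744% of their set. Cox6b2 was lower in LT-HSCs than in GMPs, at -1.16 ± 0.43 (edgeR adjusted p = 0.0239), but lost the call without the EMCN+ library of mouse 2 (edgeR adjusted p = 0.054) or the GMP library of mouse 3 (0.062), under total-count scaling (0.450) and with length and GC offsets (0.828). Ndufa4l2, induced by low oxygen, had 0 counts in LT-HSCs and 2 counts in 1 GMP library.

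Cox4i1, Cox6a1, Cox6b1, Cox8a and Ndufa4 were lower in LT-HSCs, with log2 differences of -1.80 ± 0.08, -1.60 ± 0.12, -2.37 ± 0.13, -1.30 ± 0.09 and -2.93 ± 0.13, each with an edgeR adjusted p of 1.84e-10 or less. Subunit c of the ATP synthase rotor is encoded by Atp5g1, Atp5g2 and Atp5g3, whose mature protein is the same. Atp5g3 took 79.9 ± 4.201% of the set per kilobase in EMCN+ LT-HSCs, 74.4 ± 1.77% in EMCN- LT-HSCs and 79.5 ± 3.47% in GMPs, and Atp5g1 13.4 ± 1.57%, 14.7 ± 0.793% and 15.04 ± 2.07%. The Atp5g3 share of the EMCN- libraries (72.3 to 75.7%) lay just below that of the GMP libraries (75.96 to 82.8%), and the EMCN+ libraries (75.4 to 83.8%) overlapped both. Against GMPs the level of Atp5g3 differed by -2.15 ± 0.10 and Atp5g1 by -2.21 ± 0.10. Atp5g2 shares reads with a near-identical gene that holds 88.6% of their joint counts, so its level is uncertain. The shares of Atp5g1 and Atp5g3 are uncertain with it, as Atp5g2 is part of the set. They also rest on median transcript lengths of 2675.5 bases for Atp5g1, 586 for Atp5g2 and 718.5 for Atp5g3.

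**Figure D5:**
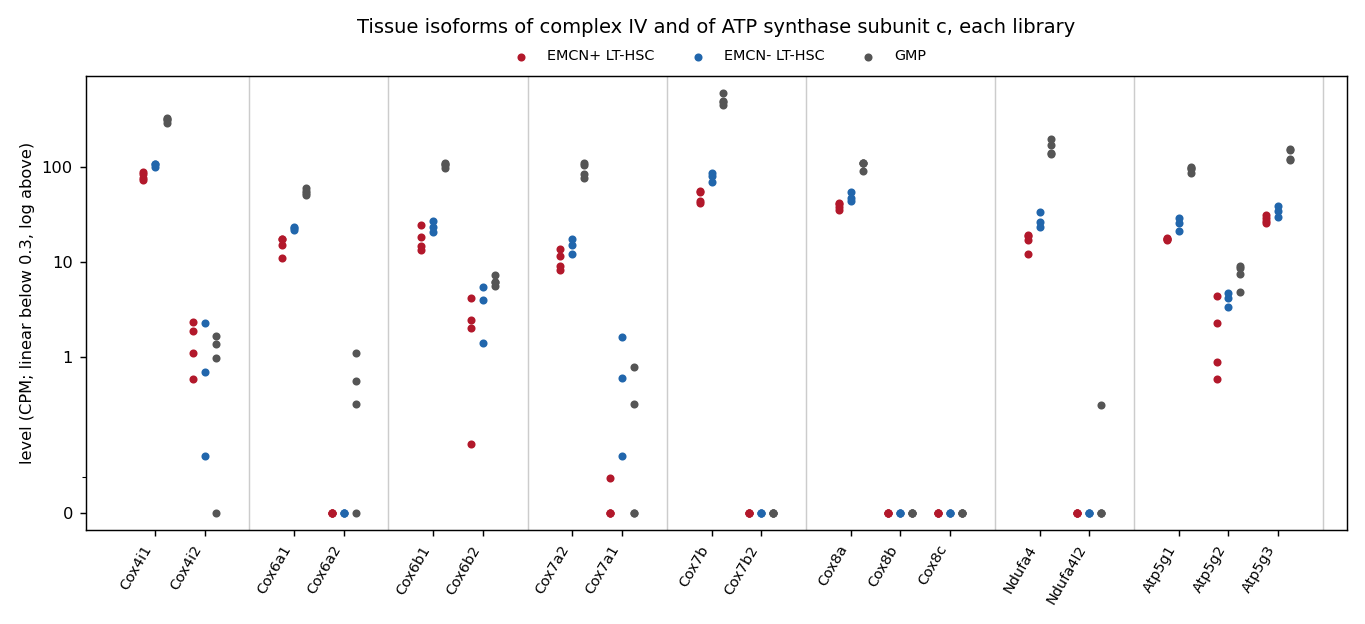
Level in CPM (y axis, linear below 0.3 and log above) of each member of the complex IV isoform sets and of ATP synthase subunit c in every library of EMCN+ LT-HSCs, EMCN- LT-HSCs and GMPs. Cox4i1, Cox6a1, Cox6b1, Cox7a2, Cox7b, Cox8a, Ndufa4, Atp5g1 and Atp5g3 have all LT-HSC libraries below all GMP libraries, and Cox7b2, Cox8b and Cox8c are at 0 throughout.

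The other genes of the pathway were read from lists. Beside all list counts below, 1.19% of all genes were called lower and 0.771% higher between the LT-HSC fractions. Against GMPs 29.9% of all genes were lower and 32.5% higher. Of the 13 subunits encoded in mitochondrial DNA 2 were lower in EMCN+ than in EMCN- LT-HSCs, with a median of -0.32, and 11 were lower and 1 higher in LT-HSCs than in GMPs, with a median of -1.22. Their summed level over that of the nuclear members was 3.53 ± 0.536 in EMCN+ LT-HSCs, 3.31 ± 0.182 in EMCN- LT-HSCs and 2.42 ± 0.364 in GMPs. For complex IV alone the ratio was 10.1, 10.4, 15.5 and 17.6 in EMCN+ LT-HSCs, 10.9, 9.69 and 10.7 in EMCN- LT-HSCs and 5.90, 4.12, 5.21 and 4.46 in GMPs. The ratios of all LT-HSC libraries lay above those of the GMP libraries for complex IV, and the 2 LT-HSC fractions overlapped. The labels give the molecule as polyA RNA although the kit named is one for total RNA, and how mitochondrial RNA was captured beside nuclear mRNA was not tested.

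Assembly factors, which build the complexes without staying in them, were counted by complex. Of 19 complex I factors 0 were called between the LT-HSC fractions and 14 were lower and 1 higher against GMPs, with a median of -0.89. Of 24 complex IV factors 1, Pet100, was lower in EMCN+ LT-HSCs (-0.92), and 16 were lower and 2 higher against GMPs, with a median of -0.67. Of 6 complex III factors 1, Uqcc2, was lower in EMCN+ LT-HSCs (-0.73), and against GMPs 3 were lower and 1 higher. Of 5 complex V factors 0 were called between the fractions and 4 were lower against GMPs. The 13 citric acid cycle enzymes had 0 calls between the fractions and 10 lower and 1 higher against GMPs, with a median of -0.53.

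Of 25 tested proteins of mitochondrial import and the outer membrane, 5 were lower in EMCN+ LT-HSCs and 22 were lower in LT-HSCs than in GMPs (median -1.27). Of 17 biogenesis regulators, transcription and replication factors of mitochondria and of their genes, 0 were called between the fractions. Against GMPs 5 were lower and 3 higher, with a median of -0.13. The share of regulators called lower was near that of all genes (29.9%), and the share called higher, with Ppargc1a counted, was below it (32.5%). Ppargc1a, the coactivator PGC-1 alpha, had 3.13 to 4.27 CPM in EMCN+ LT-HSCs and 2.29 to 5.64 CPM in EMCN- LT-HSCs. It had 0 counts in all 4 GMP libraries and so passed the filter on low counts through LT-HSC libraries alone. Its call could only be higher in LT-HSCs, and no p-value is given for it. The 3 higher calls and the median of the regulators include Ppargc1a, whose call there is no finding. Twnk, the mitochondrial helicase, was higher by 0.70 ± 0.14 (edgeR adjusted p = 0.000128). The tested members with a match to one of the 3 promoter motifs had a median of -1.66 against GMPs (n = 31) and those without one a median of -1.76 (n = 40). Of 12 tested hypoxia response genes 1 was lower in EMCN+ LT-HSCs, and 5 were lower and 3 higher against GMPs.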

How the data were processed

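Per the submitters' processing notes reads were handled with cutadapt and Salmon, and the authors deposited a table of estimated counts for each gene, whole numbers throughout; versions, build and the step from transcripts to genes are not given in the sources used here. The library kit for picogram input, per the labels' protocols, marks strand, and the labels name no molecular identifiers.

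The estimated counts were rounded and fitted for all 11 libraries with edgeR 4.0.16 in R 4.3.3 (TMM factors, filterByExpr at a minimum count of 10, robust quasi-likelihood dispersions, Benjamini-Hochberg adjustment, threshold 0.05, no mouse block). The filter left 14915 genes with 99.7% of the counts. The 7 LT-HSC libraries had equal weight against GMPs. They come from 4 mice, which also gave the GMPs, so they are not 7 independent animals, and the reported p-values treat them as independent. Levels are CPM with TMM factors, and a library's depth sets its limit for a count of 0. Gene positions, GC content and lengths were looked up by Ensembl identifier in the GENCODE M21 annotation (GRCm38), with length as the median over basic protein-coding transcripts.

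Members and lists were chosen with earlier results of these data known. Members named were up to 3 per complex with the smallest p between the LT-HSC fractions, up to 2 per complex with the largest difference from GMPs, and all isoform sets (a member called against its complex would also count, but there was none). Other genes were up to 2 called per list. The further called members and those not called were chosen after their values were seen. The mouse number in the labels marks the same animal, so it pairs the LT-HSC libraries. Deviations from the group means correlated at 0.165 to 0.223 for 3 same-mouse pairs and at -0.246 to 0.190 for 9 other pairs.

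Members with near-identical transcripts of other genes were 25, and in 5 of them, Atp5g2, Ndufb4, Cycs, Atp5l and Cox7c, the copies held over 10% of the joint counts. Near-identical meant at least 95% identity over at least 150 bases. The aligned bases had to cover 80% of either the member's or the other gene's transcript, so a copy can be a short part of the member. The symbol Ndufb1-ps was left out by the pseudogene rule although it had 80 to 1143 counts a library, and whether it encodes the mouse complex I subunit was not settled here. Alternatives were RLE and total-count scaling, other filters, DESeq2 1.42.0, limma 3.58.1 with voom, a mouse block, 2 groups alone, protein-coding genes alone, length and GC offsets and each library left out. The test was checked on simulated data.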

Additional observations from a re-analysis of the deposited data

Results flagged for a closer look

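In groups of 4 libraries a single library stood apart from the other 3 by Dixon's criterion in 5 of 88 groups examined, where chance alone gives about 1 in 20. Ndufa1 was highest in the EMCN+ library of mouse 3, at 7.24 CPM against 5.44 to 5.67 CPM in the others. Atp5mpl was highest in the EMCN+ library of mouse 1, at 96.7 CPM against 72.5 to 75.4 CPM. Atp5k was lowest in the EMCN+ library of mouse 3, at 12.9 CPM against 17.2 to 17.98 CPM. In GMPs Cox8a was lowest in mouse 1, at 92.3 CPM against 110 to 111 CPM, and the summed level of complex V was highest in mouse 2, at 4666 CPM against 4289 to 4323 CPM.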

How the results depend on the processing

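The 22 members called lower in EMCN+ than in EMCN- LT-HSCs became 14 with RLE factors (130 over all genes) and 4 with total-count scaling (50). With the 2 groups alone they became 11 (118 of 13717). Length and GC offsets gave 6 (94), and these with a mouse block gave 8 (134). Leaving out each library gave 1 (29 of 15464) to 23 (221 of 14550). Pairing the libraries by mouse as a block gave 26 calls in 11 libraries and 33 in the 6 libraries of complete pairs, where lower calls over all genes were 239 of 14915 and 528 of 13435, against 178 of 14915 as reported. DESeq2 gave 27 (248 over all genes), limma-voom 22 (195), no filter 28 (293 of 33124) and protein-coding genes alone 31 (276 of 11898). Under total-count scaling the calls over all genes were 76.3% higher, against 39.2% as reported, and the median of all genes moved to 0.11. Members called higher than in GMPs, 0 as reported in each comparison, were 6 in LT-HSCs and in EMCN+ LT-HSCs and 4 in EMCN- LT-HSCs with total-count scaling, and 1 in LT-HSCs and in EMCN+ LT-HSCs with length and GC offsets, with or without the block. The causes were not tested.

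For named members between the LT-HSC fractions 594 alternative values kept direction and call, 85 lost the call, 15 gained it and 16 reversed. Kept values include those of members that were not called as reported and stayed so, while only called members can lose a call. The call was lost most often by Cox4i1 (16 of 23 alternatives), Ndufa4 (13 of 23) and Ndufa1 (12 of 23). Against GMPs 631 kept both, 11 lost the call and 6 reversed. Between the fractions, Sdhaf1 (-0.02) gave 0.094 with total-count scaling, 0.011 and 0.045 with mouse as a block in 11 and 6 libraries, 0.0042 with offsets and block, and -0.21 to 0.12 with single libraries left out. Cox7a2l (0.02) gave -0.012 and -0.040 with the block in 11 and 6 libraries and -0.041 to 0.12 with libraries left out, and Cox4i2 (0.50) gave -0.027 to 1.89. Against GMPs Sdhaf4 (-0.87) gave 0.11 with offsets and 0.066 with offsets and block, Cox7a2l (-0.13) gave 0.66 with total counts, 0.32 with offsets and 0.32 with offsets and block, and Cox4i2 (0.42) gave -0.016 to 0.81 with libraries left out. Levels under about 0.7 CPM lie within the limit of a count of 0, and the withdrawn EMCN- library leaves 3 in that group.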
